A study of Gallus gallus with 8 samples.

Results

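The comparison described here is the chromatin response of the retinal pigment epithelium (RPE) of the embryonic day 4 (E4) chicken to removal of the retina together with fibroblast growth factor 2 (FGF2). ATAC-seq, the assay used, relies on Tn5, a transposase that cuts and tags DNA not wrapped in nucleosomes, so that reads pile up over open regions. The treated libraries, E4 6hPR+FGF2, came from RPE taken 6 hours after surgical retinectomy with an FGF2-loaded heparin bead placed in the eye cup, and E4 RPE, from undisturbed eyes, was the control. Each group held 2 libraries, each made from RPE sheets of 2 embryos, and all embryos were unmodified chickens (Gallus gallus). Both groups are listed at Hamburger Hamilton stage 24. For the treated embryos it was not given whether this is the stage at surgery or at collection. The labels name White Leghorn eggs, whereas the methods of the study name pathogen-free SPAFAS eggs for this assay, so the strain is uncertain. There was no ATAC-seq library of retinectomy without FGF2, and surgery and growth factor therefore cannot be told apart. Whether E4 RPE was collected at a matched time was not given, so the 6 hours after surgery may also separate the groups in age. The part of any such difference in age was not tested. The sex of the embryos in each pool was not given. The other 4 of the 8 libraries of the study, 2 of E5 6hPR+FGF2 and 2 of E5 RPE, entered the fit to share the estimate of the spread and are shown beside the E4 values where stated.

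The members were all 89823 open regions of the study with a width above 0 on 34 chromosomes. Of these, 84902 on 32 autosomes carry the results below. Another 4437 on chromosome Z, 123 on chromosome W, and 361 whose signal in the E4 6hPR+FGF2 libraries came to under 2% of that in the E4 RPE libraries were kept apart. This last class is called near-lost and was taken out before Z and W were counted. The autosomal regions covered 70.8 Mb, with a median width of 540 bp and a median of 2300 bp to the nearest other region.

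The RPE is the pigmented epithelial sheet behind the neural retina. It supports photoreceptors in the mature eye, and in the young chick embryo it can still give rise to a new neural retina when the original retina is removed and FGF2 is supplied. FGF2 binds receptor tyrosine kinases and activates the Ras and MAP kinase cascade, which acts on transcription factors that in turn open or close regulatory DNA. Open regions mark promoters and enhancers, and a change in their signal is a change in accessibility, not in expression. The chicken genome is divided into a few large macrochromosomes and many small microchromosomes. The small chromosomes are rich in genes and in G and C bases, and the smallest of them, often called dot chromosomes, are the hardest to assemble.

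Values are read counts per region divided by a size factor per library, here called normalized counts. Reads within open regions numbered 64716670 and 59446882 in the E4 6hPR+FGF2 libraries, against 34595299 and 59076807 in the E4 RPE libraries, within a range of 25233633 to 72884966 over the 8 libraries. A single read was worth 0.690 and 0.763 normalized counts in the treated libraries and 1.41 and 0.815 in the E4 RPE libraries, so low values in the first E4 RPE library are the coarsest. Among genes whose products mark RPE, only TFEC had a region in the part of the annotation used here, and the labelled tissue was not checked further. In tissue of this kind, fewer cells with an open region and less signal per cell cannot be told apart.

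About 20.3% of autosomal regions differed between E4 6hPR+FGF2 and E4 RPE, nearly evenly split by direction. Differentially accessible regions (DARs) passed an adjusted p threshold of 0.05 by limma on log2(normalized count + 1), with Benjamini-Hochberg adjustment over all 89823 regions. Over all regions tested, 10.4% were called higher and 9.54% lower. Among the 84902 autosomal regions, 9122 were higher and 8096 were lower in E4 6hPR+FGF2, so that 53.0% of DARs were higher. Another 67684 did not pass. The median fold change of autosomal regions was -0.03 on the log2 scale, and the median standard error was 0.27. In all 17218 autosomal DARs both treated libraries lay on the same side of both E4 RPE libraries, an arrangement that 63.1% of autosomal regions and 62.5% of all regions showed.

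Most DARs changed by a moderate amount. The median log2 fold change was 1.16 among those higher and -1.12 among those lower, and the extremes were 5.12 and -7.13. Log2 fold changes of at least 1 in size were reached by 5673 higher and 4808 lower DARs. At a size of at least 2 there were 1380 higher and 657 lower. At a size of at least 4 there were 30 higher and 95 lower, so that the balance of directions turned over in the extreme tail. Near-lost regions are left out of these counts and extremes. Of the 264 on autosomes, 211 were called lower, at a median log2 fold change of -6.66. They were picked for a fall in these same libraries, so their calls and the size of their change follow from the rule and test nothing.

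The counts depended on single libraries and on the scaling. Without the second E4 6hPR+FGF2 library there were 2635 higher and 3806 lower DARs, and without the first there were 6137 and 4901. Without the second E4 RPE library there were 5137 higher and 3215 lower, and without the first there were 6041 and 5890. Scaling the libraries to equal totals moved the median of all regions up by 0.11 on the log2 scale and gave 12113 higher and 6536 lower, so that the share of DARs called higher was 65.0% in place of 53.0%. There were also more lower than higher DARs in a fit of the 4 E4 libraries alone, with 6315 higher and 6663 lower, and without the first or the second E5 6hPR+FGF2 library, with 9475 and 10030 or 9444 and 9969. The balance of directions was therefore not stable.

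**Figure D1:**
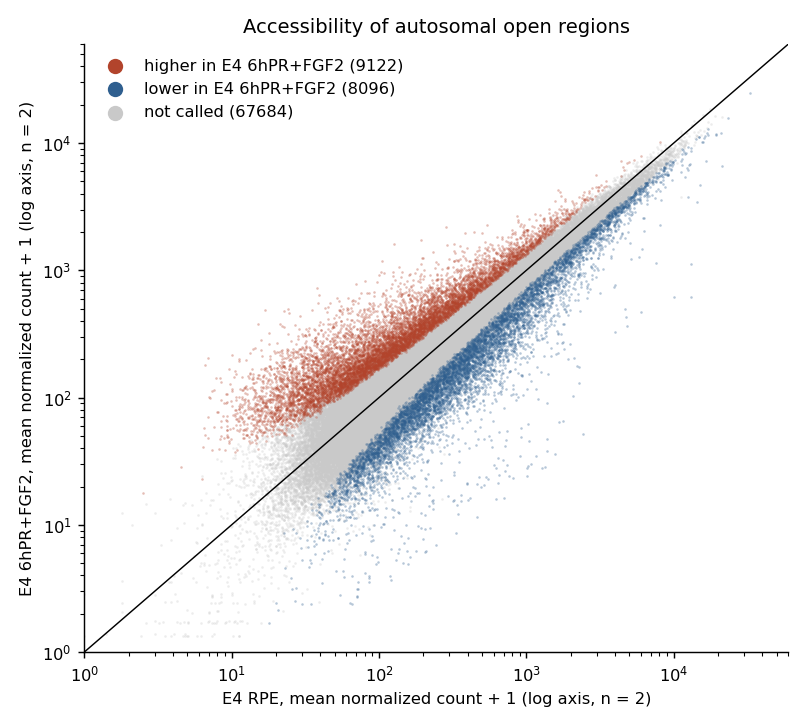
Mean normalized count + 1 of each autosomal open region in E4 6hPR+FGF2 (vertical) and in E4 RPE (horizontal), n = 2 libraries each, both on log axes, with the diagonal marking equal signal. The 9122 regions called higher (red) sit above the diagonal and extend to low E4 RPE signal, the 8096 called lower (blue) sit below it, and the 67684 not called (grey) lie between them.

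Higher and lower DARs were unlike in size and setting. Higher DARs had a median width of 480 bp, with quartiles of 310 and 830 bp, and a median signal of 258 normalized counts in E4 6hPR+FGF2 against 106 in E4 RPE. Lower DARs had a median width of 830 bp, with quartiles of 520 and 1350 bp, and a median signal of 156 in E4 6hPR+FGF2 against 369 in E4 RPE. Higher DARs were narrower, and they lay closer to other regions, at a median of 1890 bp from the nearest, against 3300 bp for lower DARs. Their signal was weaker than that of lower DARs in E4 RPE and stronger in E4 6hPR+FGF2. DARs were split by the change between these groups, so this order of signal follows in part from the split. Of the higher DARs 40.3% lay on macrochromosomes, and of the lower DARs 65.4% did.

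The 9122 higher DARs took 8.88% and 10.1% of the autosomal signal in the E4 6hPR+FGF2 libraries, against 4.64% and 4.52% in the E4 RPE libraries. The 8096 lower DARs took 10.004% and 9.99% of it in the E4 6hPR+FGF2 libraries, against 15.9% and 17.1% in the E4 RPE libraries. These DARs covered 6.31 Mb of higher and 9.30 Mb of lower sequence. They are the regions chosen by the test, so the shares describe how much of the signal moved and test nothing.

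Few autosomal DARs outside the near-lost class went between signal near background and a well-filled region. With a mean under 20 normalized counts taken as near background and a mean of at least 100 as filled, 168 higher DARs were filled in E4 6hPR+FGF2 and near background in E4 RPE. Their median signal was 131 in E4 6hPR+FGF2 against 15.7 in E4 RPE, and they were narrow, at a median width of 280 bp. In the other direction 78 lower DARs were near background in E4 6hPR+FGF2, at a median of 12.5, and filled in E4 RPE, at a median of 172. By contrast, 4722 higher DARs had at least 100 normalized counts in E4 RPE already, and 5076 lower DARs kept at least 100 in E4 6hPR+FGF2. Near-lost regions are left out of these counts, and no matching limit was set on rises. Over all chromosomes, 225 of the 361 near-lost regions averaged at least 100 normalized counts in E4 RPE. The 168 and 78 therefore do not measure the balance of directions. Most autosomal DARs outside the near-lost class changed in degree at regions that were open in both conditions.

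The replicates were not equally far apart from the control. Among higher DARs, the first E4 6hPR+FGF2 library stood a median of 1.04 above the mean of the E4 RPE libraries on the log2 scale and the second 1.29 above it, and the second exceeded the first in 77.4% of them. Among lower DARs the same medians were -1.12 and -1.08, and the second E4 RPE library exceeded the first in 72.9% of them. Of the 241 DARs with a log2 fold change of at least 3, the second treated library exceeded the first in 99.6%, and the second E4 RPE library exceeded the first in 88.0%. The strongest rises thus came with the widest gap within each group. The part of this gap in the results was not tested.

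The share of regions called higher was greatest where E4 RPE signal was lowest, and the share called lower was greatest in the 3 deciles where it was highest. Autosomal regions were cut into deciles of mean E4 RPE signal, here called starting signal. In the lowest decile, with a mean of at most 47.0 normalized counts, 25.2% of regions were higher and 1.10% were lower. In decile 5 the shares were 10.2% and 7.89%, and in decile 8 they were 9.52% and 16.2%. In decile 9 they were 7.82% and 17.2%. In the highest decile, from 1412 normalized counts upward, 1.99% were higher and 16.3% were lower. The median log2 fold change ran from 0.40 in the lowest decile to -0.18 in the highest.

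Bins cut on the control libraries are not independent of a contrast that uses those libraries. The E5 RPE libraries, which do not enter the E4 contrast, gave a similar order, with 22.4% higher and 1.02% lower in their lowest decile and 1.80% and 18.8% in their highest. The median of the lowest decile then came to 0.23 in place of 0.40. When the bins were cut on the E4 6hPR+FGF2 signal instead, the lowest decile held 0.130% higher and 16.2% lower, decile 8 held 18.8% and 9.27%, and the highest held 6.44% and 10.03%. Cut on the mean of all 8 libraries, the lowest decile held 2.67% higher and 4.66% lower, decile 7 held 14.8% and 12.7%, and the highest held 3.82% and 14.0%. The excess of higher DARs at the low end thus turned into an excess of lower DARs under the last 2 cuts, whereas the excess of lower DARs in the highest decile was present under all 4. A region with little signal in E4 RPE is in the table because it was called open in at least 1 of the 8 libraries, which weighs on the low end as well. Leaving out each E4 library in turn, the lowest decile of starting signal held 8.54% to 21.0% higher DARs and the highest decile held 6.02% to 9.52% lower.

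By width, most regions of every class were not called. Among those called in the main fit, the narrow regions were mostly higher and the wide regions mostly lower. Under 250 bp, 11.5% of 10030 regions were higher and 2.81% were lower. From 500 up to 1000 bp, 11.5% of 23802 were higher and 12.5% lower. From 1000 up to 2000 bp the shares were 7.87% and 15.04% of 15984, and at 5000 bp or more they were 4.66% and 24.1% of 515 regions. The share called higher was therefore much the same up to 1000 bp and lower beyond it, whereas the share called lower was at its lowest in the narrowest class and at its highest in the widest. With libraries scaled to equal totals, 12.69% were higher and 12.71% lower from 1000 up to 2000 bp. From 2000 up to 5000 bp the shares were then 12.9% and 12.6%, and at 5000 bp or more 10.5% and 22.3%. The excess of lower DARs among wide regions was thus left only at 5000 bp or more.

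Width, signal and precision moved together. The median standard error of the log2 fold change was 0.40 under 250 bp and 0.14 at 5000 bp or more, so that a smaller change could pass the test in a wide region. The median called change was 1.57 for higher and -1.62 for lower DARs under 250 bp, against 0.63 and -0.95 at 5000 bp or more. For lower DARs it was smallest from 2000 up to 5000 bp, at -0.65, where the median standard error was also 0.14. Between the quartiles of starting signal the order by width was another. There 6.76% of regions under 250 bp were higher and 8.83% were lower, against 17.4% and 10.2% of regions from 1000 up to 2000 bp, and in the 89 regions of 5000 bp or more the shares were 5.62% and 34.8%. Leaving out each E4 library in turn, the share of all regions called lower ran between 0.518% and 1.67% under 250 bp and between 7.77% and 17.3% at 5000 bp or more. Between these quartiles, the narrowest regions had no excess of higher DARs, and the widest had an excess of lower DARs. Signal was not matched across widths there. Its median in E4 RPE was 85.2 normalized counts under 250 bp, 337 from 1000 up to 2000 bp and 179 at 5000 bp or more.

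By chromosome class, the share called higher grew with decreasing chromosome size, and the share called lower shrank from macrochromosomes to microchromosomes but not further on dot chromosomes. Macrochromosomes are here chromosomes 1 to 5, intermediate chromosomes 6 to 10, and dot chromosomes 16 and 30 to 33, with the others counted as microchromosomes. On macrochromosomes 8.18% of 44904 regions were higher and 11.8% were lower, with a median log2 fold change of -0.14. On intermediate chromosomes the shares were 10.3% and 8.81% of 14785 regions, with a median of -0.04. On microchromosomes 15.1% of 23870 regions were higher and 5.79% were lower, with a median of 0.14. On dot chromosomes the shares were 23.2% and 8.56% of 1343 regions, with a median of 0.30. Macrochromosomes and microchromosomes thus had medians of opposite sign.

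This order was present in each library. Against the mean of the E4 RPE libraries, macrochromosomes stood at a median of -0.12 and -0.13 in the first and second E4 6hPR+FGF2 library, microchromosomes at 0.14 and 0.15, and dot chromosomes at 0.28 and 0.29. Between the replicates themselves, the second minus the first treated library gave 0.06 on macrochromosomes and 0.05 on microchromosomes, and the second minus the first E4 RPE library gave 0.02 on both, so the step between these classes was larger than the gap between replicates. That gap does not measure a difference in preparation shared by both libraries of a group. The labels give no batch, so a batch and the treatment cannot be told apart for this order. On dot chromosomes the E4 RPE libraries differed by -0.14. Leaving out each E4 library in turn, the share called higher on macrochromosomes ranged from 2.29% to 6.05%, on microchromosomes from 4.45% to 10.3% and on dot chromosomes from 7.59% to 20.7%, and within each of these 4 fits it increased from macrochromosomes to dot chromosomes. Under scaling to equal totals the medians were -0.03 on macrochromosomes, 0.07 on intermediate chromosomes, 0.25 on microchromosomes and 0.41 on dot chromosomes, since that scaling moves every region by the same amount, and the sign for intermediate chromosomes flipped. On macrochromosomes 10.8% of regions were then higher and 9.53% lower, so the excess of lower DARs there depended on the scaling.

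The order of the shares called higher was also present at like starting signal. In deciles 7 and 8 together, 6.70% of regions were higher and 18.6% lower on macrochromosomes, against 15.1% and 7.33% on microchromosomes and 29.5% and 9.61% on dot chromosomes. As shares of all autosomal signal the shift was small. Macrochromosomes held 46.1% and 46.2% of it in E4 6hPR+FGF2 against 48.5% and 48.5% in E4 RPE, and microchromosomes held 34.3% and 34.1% against 31.9% and 32.1%. The base composition of the regions was not analysed here, and its part in the order was not tested.

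Most single chromosomes followed their class. Chromosome 2 had the lowest median among macrochromosomes, at -0.17, with 7.27% higher and 12.4% lower. Chromosome 28 stood at 0.32 with 22.2% higher and 3.81% lower, and chromosome 27 at 0.31 with 22.6% and 3.91%. Chromosome 33 had 26.5% higher and 3.87% lower. Some did not. Chromosome 10 stood at 0.09 with 13.1% higher and 5.81% lower, above the other intermediate chromosomes, and chromosome 11, a microchromosome, stood at -0.05 with 9.54% and 9.77%. Among dot chromosomes, chromosome 31 had a median of -0.49, with 7.10% higher and 21.9% lower of 155 regions, and chromosome 16, which carries the major histocompatibility complex in chicken, had 10.7% higher and 23.2% lower of 112. Chromosome 31 also held 34 near-lost regions and chromosome 16 held 9.

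**Figure D2:**
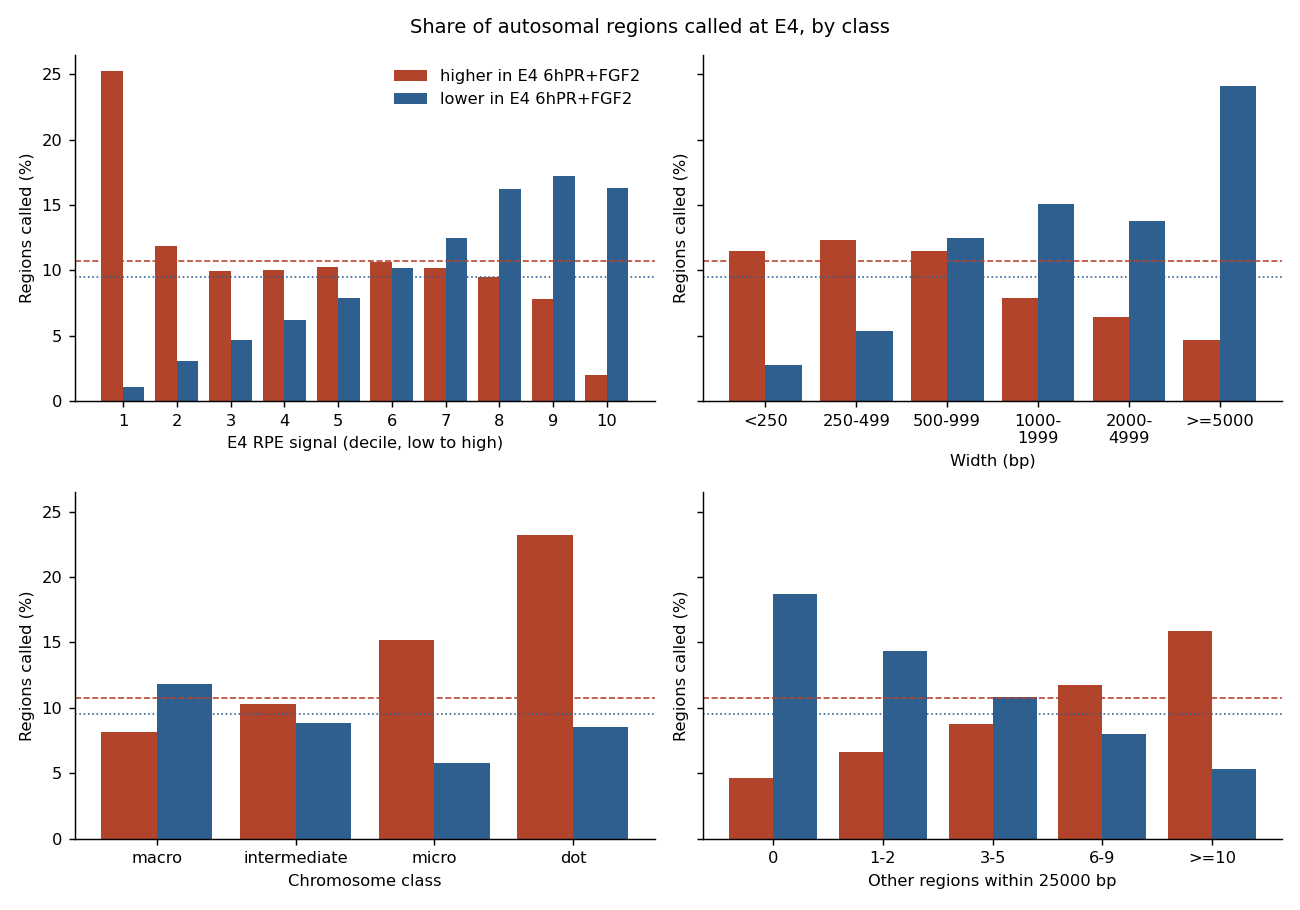
Percentage of autosomal open regions called higher (red) and lower (blue) in E4 6hPR+FGF2, by decile of E4 RPE signal, width in bp, chromosome class and number of other regions within 25000 bp, with dashed and dotted lines at the autosomal shares of 10.7% and 9.54%. The share called higher grew from 8.18% on macrochromosomes to 23.2% on dot chromosomes and from 4.67% in regions with no neighbour to 15.9% in those with 10 or more.

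**Figure D3:**
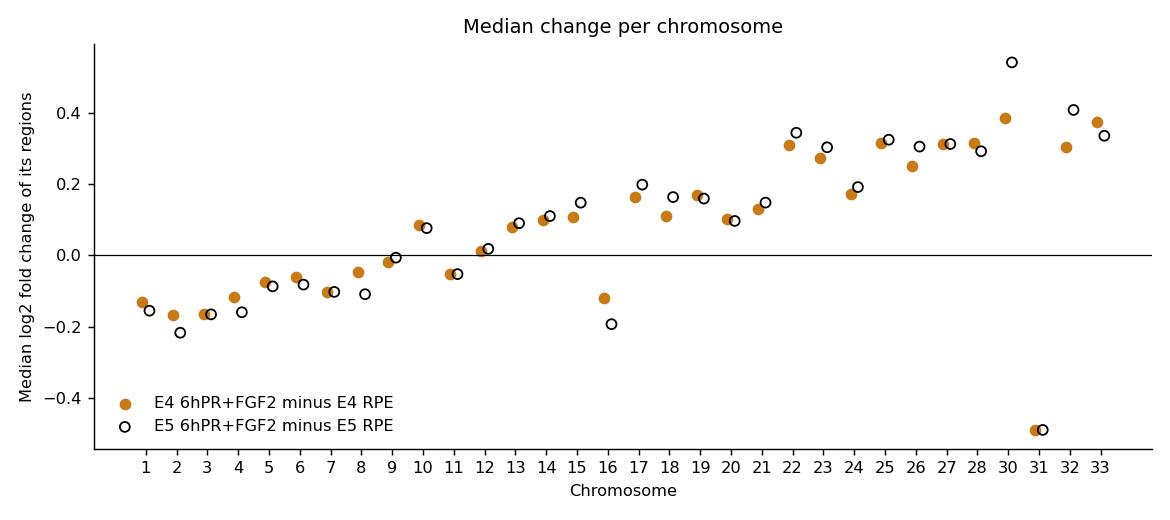
Median log2 fold change of the open regions of each autosome, for E4 6hPR+FGF2 minus E4 RPE (filled) and, beside it, E5 6hPR+FGF2 minus E5 RPE (open), with chromosomes in number order along the horizontal axis. Medians were -0.13 on chromosome 1 and 0.32 on chromosome 28 at E4, and chromosomes 16 and 31 fell below the chromosomes of similar size.

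By clustering, the share called higher was larger among crowded regions and the share called lower among isolated regions, with most regions of either kind not called. Of 2121 regions with no other region within 25000 bp, 4.67% were higher and 18.7% were lower, with a median log2 fold change of -0.39. Of 26963 regions with 3 to 5 neighbours, 8.77% were higher and 10.8% were lower. Of 18020 regions with 10 or more, 15.9% were higher and 5.35% were lower, with a median of 0.17. Distance to the nearest region gave the same order. Under 500 bp 11.5% were higher and 6.27% lower, and at 50000 bp or more 1.91% were higher and 24.8% lower, of 314 regions.

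Crowding and chromosome class were related, since small chromosomes are dense. In each class set out here, regions with 10 or more neighbours were called higher more often, and lower less often, than regions with none. Within macrochromosomes 4.27% of regions without a neighbour were higher and 18.6% lower, against 12.5% and 7.05% of those with 10 or more. Within microchromosomes the same shares were 7.18% and 14.9% against 17.4% and 4.61%. On dot chromosomes 3.13% of 32 regions without a neighbour were higher and 53.1% lower, against 28.3% and 5.33% of 732 with 10 or more. The order of the classes was thus present among crowded regions, whereas among regions without a neighbour the dot chromosomes had the lowest share called higher and the highest share called lower. Among regions of at most 2000 bp on all autosomes, 12.1% within 500 bp of another were higher and 5.27% lower. At 50000 bp or more 2.02% of them were higher and 22.9% lower. The part of the widths of merged regions was not tested. Leaving out each E4 library in turn, the share called higher ran between 1.23% and 3.54% without a neighbour and between 4.68% and 10.8% with 10 or more.

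Neighbouring regions tended to be called in the same direction. Of 84870 pairs of consecutive autosomal regions, both were higher in 1812, both lower in 1393 and the directions were opposite in 927, so that 77.6% of pairs with both called matched. The match was 92.9% where the gap was under 500 bp, 77.6% from 2000 up to 10000 bp and 69.1% from 10000 up to 50000 bp. After a region called higher, the next was higher in 19.9% of cases, against 10.7% over all pairs, and after a region called lower the next was lower in 17.2%, against 9.53%. Neighbours share a chromosome class and a density, and reads near an edge can be counted in either of a close pair, so pairs are not independent.

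Runs of consecutive DARs in a single direction were short. Of at least 3 regions there were 323 higher runs, with 1168 regions, and 212 lower runs, with 728 regions. Of at least 8 there were 5 higher and 3 lower runs. The longest higher run held 9 regions at chr30:1378600-1401710 (GRCg6a, as for all coordinates here), with summed signals of 5173 and 5385 normalized counts in E4 6hPR+FGF2 against 3018 and 2065 in E4 RPE. A run of 8 at chr26:4412670-4421570 had 4239 and 4979 in E4 6hPR+FGF2 against 2314 and 1855 in E4 RPE. Both groups were well filled in the higher runs, and the treated libraries lay above both E4 RPE libraries.

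The longest lower runs had deeper changes. A stretch of 10 consecutive regions was lower at chr30:1630090-1666910, with sums of 1364 and 1244 in E4 6hPR+FGF2 against 12528 and 10092 in E4 RPE, and a median log2 fold change of -4.21. At chr18:10996410-11084490, 10 regions summed to 5949 and 4186 against 13074 and 15331, and at chr6:783510-992570, 8 regions summed to 894 and 712 in E4 6hPR+FGF2 against 7862 and 6047 in E4 RPE. Chromosomes 30, 18 and 6 were also among those with the most near-lost regions, with 22, 18 and 19. Outside that class they held 233, 1535 and 3383 regions. A run of 7 lower regions at chr11:16192340-16234710 kept more of its signal, with sums of 691 and 699 in E4 6hPR+FGF2 against 2536 and 2975 in E4 RPE and a median of -2.09.

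In windows of 500000 bp, both directions usually occurred together. Of 1761 windows with at least 15 autosomal regions, 1483 held at least 1 higher and at least 1 lower DAR, 225 held none higher and 60 none lower. The highest share called higher was on chromosome 30 from 1000001 to 1500000, with 31 of 66 regions, followed by chromosome 14 from 16000001 to 16500000, with 6 of 15, and chromosome 33 from 6500001 to 7000000, with 35 of 88. The highest share called lower was in the next window of chromosome 30, from 1500001 to 2000000, with 14 of 24 regions. Chromosome 6 from 500001 to 1000000 had 12 of 25 and chromosome 18 from 11000001 to 11500000 had 12 of 26. The extremes in both directions thus lay side by side on chromosome 30.

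The largest rises were regions at or near background in E4 RPE. To be ranked, a DAR needed E4 groups that did not overlap, as all autosomal DARs had. It also had to average 100 normalized counts or more in its higher group, and these were ordered by log2 fold change. The limit of 100 did not apply to the regions of the gene lists below. The first was chr2:5151970-5152640, with 344 and 629 normalized counts in E4 6hPR+FGF2 against 5.66 and 26.1 in E4 RPE, a log2 fold change of 5.12 ± 0.55 (SE) with an adjusted p of 0.000406. A region of 220 bp at chr2:128601250-128601470 had 126 and 231 against 1.41 and 9.78, a change of 5.07 ± 0.63. At chr1:60593030-60593240 the values were 112 and 294 in E4 6hPR+FGF2 against 2.83 and 8.97 in E4 RPE, a change of 4.88 ± 0.58. The groups were far apart in all 3, but in each the second library of a group exceeded the first.

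Of the next 5 rises, chr15:12722380-12722710 and chr17:8024430-8024710 had no read in the first E4 RPE library. Their values were 78.0 and 208 in E4 6hPR+FGF2 against 0 and 18.8 in E4 RPE for the region on chromosome 15, and 66.2 and 145 against 0 and 16.3 for that on chromosome 17. Their adjusted p values were 0.0118 and 0.0134, and neither passed the test without the second E4 6hPR+FGF2 library. The region at chr14:6267970-6268390 had 235 and 516 in E4 6hPR+FGF2 against 8.49 and 19.6 in E4 RPE, a change of 4.65 ± 0.46, and chr5:21866810-21867470 had 325 and 629.6 against 14.1 and 29.4, a change of 4.40 ± 0.44. All 8 also passed the test at E5, with log2 fold changes of 3.51 to 5.44. No gene was assigned to these regions here.

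**Figure D4:**
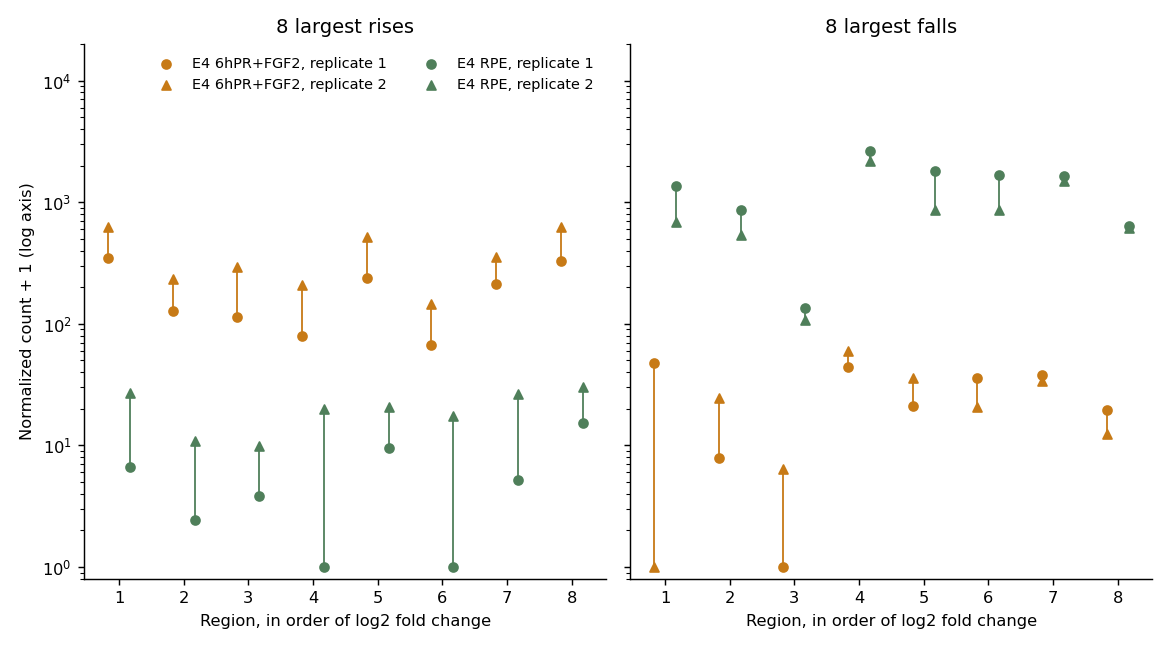
Normalized count + 1 (log axis) of the 8 largest rises (left) and the 8 largest falls (right) in the 2 E4 6hPR+FGF2 libraries (orange) and, beside them, the 2 E4 RPE libraries (green), where circles and triangles are the first and second replicate, lines join the replicates of a group, and an ordinate of 1 is a count of 0. The groups do not overlap in any of the 16 regions, which was a condition for being ranked. The second treated library exceeds the first in all 8 rises.

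Larger regions also gained. At chr11:474650-475700 the signal was 1074 and 2119 in E4 6hPR+FGF2 against 96.2 and 153 in E4 RPE, a change of 3.62 ± 0.32, and at chr6:10983040-10985120, a region of 2080 bp, it was 745 and 1199.7 against 72.1 and 131, a change of 3.27. By absolute gain the first were chr24:3881160-3887890, with 6837 and 7628 in E4 6hPR+FGF2 against 4859 and 3858 in E4 RPE, chr23:5198200-5200990, with 3894 and 4678 against 1489 and 1796, and chr17:5820740-5825590, with 5083 and 6044 against 3435 and 2536. The fold changes of these strongest gains were modest, at 0.74, 1.38 and 0.91 on the log2 scale. The gain on chromosome 24 did not pass the test without the second E4 6hPR+FGF2 or without the second E4 RPE library.

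The largest falls left little signal in E4 6hPR+FGF2 and stood at the edge of the near-lost class. The first was chr30:1657780-1658800, with 46.2 and 0 normalized counts in E4 6hPR+FGF2 against 1351 and 681 in E4 RPE, a change of -7.13 ± 1.29 with an adjusted p of 0.00464. It lay in the lower run on chromosome 30 described above, with 13 near-lost regions within 100000 bp, and the call was lost under robust moderation of the variance. Its rank came with the library at 0. By the ratio of group means it kept 2.28% of its E4 RPE signal, against 2.07% at chr24:6362510-6363130 and 2.11% at chr1:162256850-162258250. At chr19:234690-235470 the values were 6.90 and 23.7 in E4 6hPR+FGF2 against 869.7 and 533 in E4 RPE, with 8 near-lost regions within 100000 bp, and this call was lost under robust moderation too and without the first E4 6hPR+FGF2, the first E4 RPE or the second E4 RPE library. At chr31:916730-917050 they were 0 and 5.34 against 134 and 106.

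Other large falls had no near-lost region within 100000 bp. At chr1:162256850-162258250 the signal was 42.8 and 58.8 in E4 6hPR+FGF2 against 2621 and 2188 in E4 RPE, a change of -5.55 ± 0.42. At chr30:264290-265150 it was 37.3 and 32.8 against 1636 and 1481, a change of -5.44 ± 0.20 with an adjusted p of 1.4e-06. At chr27:3850430-3850930 it was 18.6 and 11.4 in E4 6hPR+FGF2 against 638 and 613 in E4 RPE. The replicates in these regions were close to each other in both groups. All had fallen by about as much at E5, with log2 fold changes of -5.70, -5.74 and -5.97.

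By absolute size, the largest drops were at chr27:1699250-1708700, with 6287 and 6986 normalized counts in E4 6hPR+FGF2 against 21391 and 20855 in E4 RPE, at chr19:173630-175990, with 618 and 621 against 13982 and 12033, and at chr16:1797690-1801100, with 1012 and 1245 against 15128 and 11174. The first kept 31.4% of its E4 RPE signal, at a log2 fold change of -1.67 ± 0.22. The regions on chromosomes 19 and 16 kept 4.76% and 8.58%, with 8 and 3 near-lost regions within 100000 bp. Among regions of at least 5000 bp, the deepest fall was at chr18:11016860-11030910, with 33.1 and 34.3 in E4 6hPR+FGF2 against 1297 and 1037 in E4 RPE, and the largest rise was at chr30:41300-46490, with 545 and 519 against 233 and 100.3.

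The deeper a fall, the more often it lay close to a near-lost region. Of the 84 lower DARs that kept 2 to 5% of their E4 RPE signal, 51.2% lay within 100000 bp of a near-lost region, and of the 79 that kept 5 to 10%, 45.6% did. The share was 11.9% of 529 that kept 10 to 25%, 1.49% of 4157 that kept 25 to 50%, and 1.14% of 3247 that kept over 50%. Over all autosomal regions it was 1.46%, and over the higher DARs it was 1.15%. The bulk of the lower DARs therefore lay no closer to near-lost regions than autosomal regions in general, and the deep falls did. Near-lost regions are defined by a fall in the same E4 libraries. The order thus describes how deep falls lay together and tests nothing. Dot chromosomes held 18 of the 84 and 16 of the 79, against 1343 of all 84902 autosomal regions.

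Deep falls that kept at least 10% of the signal and lay over 100000 bp from any near-lost region were looked up after values were seen. The region at chr1:171397300-171398660 had 102 and 131 in E4 6hPR+FGF2 against 1116 and 1200 in E4 RPE, a change of -3.31 ± 0.18, with close replicates in both groups. At chr21:5899970-5900270 the values were 14.5 and 29.8 against 192 and 213. At chr1:35675280-35675960 the treated libraries were far apart, with 5.52 and 157 in E4 6hPR+FGF2 against 287 and 449 in E4 RPE.

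Genes could be placed beside regions only where the annotation of the study gave them, by the nearest start of a transcript. It covered chromosome 1 from 20010 to 27315070 and, in addition, regions that contain an annotated summit of signal, mostly elsewhere on chromosome 1, part of which the study picked for stage differences in these libraries at motifs of the factor OTX2. Of 1859 autosomal regions with a gene symbol, 168 were higher and 233 were lower. The shares were 10.7% and 9.54% over all autosomal regions, and 9.07% and 12.2% over the 1919 annotated regions of chromosome 1. The excess of lower regions was thus near that of chromosome 1. The regions with a symbol belonged to 475 genes, of which 106 had a higher region, 161 a lower region, 37 both and 245 neither. A gene beside a changed region is a nearest gene only, and its transcription was not measured here.

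By feature, in the annotated stretch of chromosome 1, promoters were split evenly. Of 138 regions at promoters 9.42% were higher and 9.42% lower, against 7.95% and 13.1% of 968 regions in introns and 9.97% and 11.1% of 702 between genes. Promoter regions were stronger, at a median of 941 normalized counts in E4 6hPR+FGF2 and 1050 in E4 RPE. Above the median of starting signal, 6.90% of promoter regions were higher and 11.2% lower, against 4.47% and 21.5% in introns and 6.23% and 18.7% between genes.

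Among all annotated regions, the largest rises were beside genes of varied roles. An intron of DENND6B, which belongs to a family of activators of Rab GTPases, had a region with 163 and 282 normalized counts in E4 6hPR+FGF2 against 5.66 and 31.8 in E4 RPE, a change of 3.86. Regions beside SLC2A13, a transporter of myo-inositol, and PSMC2, a subunit of the proteasome, changed by 3.47 and 3.19, and that of SLC2A13 did not pass without the second E4 6hPR+FGF2 or the first E4 RPE library. The largest falls were beside U2, a small nuclear RNA with many near-identical copies, with 40.7 and 54.9 in E4 6hPR+FGF2 against 1068 and 766 in E4 RPE, and at the promoter of CLC2DL3, with 504 and 429.7 against 6944 and 5130.2. The CLC2DL3 region had 5 near-lost regions within 100000 bp, and up to 5 alignments were reported per read, so counts in repeated sequence are uncertain.

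The other named falls were beside ARSH, GPR85, GRM3 and RASGRP3. The region of ARSH, an arylsulfatase, had 67.6 and 61.8 in E4 6hPR+FGF2 against 535 and 656 in E4 RPE. That of GPR85, an orphan G protein-coupled receptor, had 22.8 and 26.7 against 139 and 139, and that of GRM3, a metabotropic glutamate receptor, had 34.5 and 32.1 in E4 6hPR+FGF2 against 169.7 and 190.0 in E4 RPE. The region of RASGRP3, an activator of Ras, had 23.5 and 36.6 against 109 and 196. The log2 fold changes of these 4 were -3.18, -2.44, -2.40 and -2.28.

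Of 109 regions of 13 signalling genes, 13 were higher and 8 were lower, and 8 genes had a call, with a median log2 fold change of -0.05 over the regions. The shares, 11.9% and 7.34%, stood beside 10.7% and 9.54% of all autosomal regions, and 9.07% and 12.2% of the 1919 in the annotated stretch of chromosome 1. Both partners of a ligand and receptor pair had higher regions. An intron of HGF, the ligand of the MET receptor tyrosine kinase, had 1527 and 1458 normalized counts in E4 6hPR+FGF2 against 752 and 709 in E4 RPE, a change of 1.03 ± 0.15 with an adjusted p of 0.00152. In all 3 of its 14 regions were higher and 0 lower. An intron of MET had 106 and 166 against 50.9 and 43.2, a change of 1.48 ± 0.34, and was the only DAR among 5. This MET call was lost without the second E4 6hPR+FGF2 or the second E4 RPE library.

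Kinases and small GTPase regulators went both ways. A region of MAPK11, a p38 MAP kinase, had 129.7 and 218 in E4 6hPR+FGF2 against 46.7 and 31.8 in E4 RPE, and 2 of 6 regions of this gene were higher. An exonic region of PIM3, a serine/threonine kinase, had 6852 and 6565 against 9492 and 8945, a change of -0.46 ± 0.13 that did not pass when any 1 of the 4 E4 libraries was left out. At SIK1, a salt-inducible kinase, a region had 75.2 and 87.0 in E4 6hPR+FGF2 against 161 and 219 in E4 RPE, a fall that did not pass without the second E4 RPE library. Regions of TIAM1, an activator of Rac, were 2 higher and 3 lower of 22, and those of RCAN1, an inhibitor of calcineurin, were 1 higher and 1 lower of 13. PLXNA4, a receptor for semaphorins, had 4 higher and 2 lower of 21 regions, the largest of them an intronic region with 217 and 324 in E4 6hPR+FGF2 against 49.5 and 20.4 in E4 RPE, a change of 3.02 ± 0.42. The Wnt ligand genes WNT2, WNT16 and WNT11, the Hedgehog transducer SMO and the kinase MAPK12 had no call in 13 regions together.

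Of 128 regions of 15 transcription factor genes, 14 were higher and 10 were lower, and 12 genes had a call. The shares were 10.9% and 7.81%. TFEC, a relative of the pigment cell factor MITF, had 3 lower and 0 higher of 10 regions. The largest change there was an intergenic region with 36.6 and 32.8 normalized counts in E4 6hPR+FGF2 against 60.8 and 96.2 in E4 RPE, a change of -1.12 ± 0.32 with an adjusted p of 0.0358, which did not pass without either E4 6hPR+FGF2 library, without the second E4 RPE library or without either E5 RPE library. GATA3 had 1 higher and 1 lower of 19 regions, and the larger change was in an intron, with 403 and 411 in E4 6hPR+FGF2 against 810.3 and 828 in E4 RPE, a change of -1.01 ± 0.17. A region of GABPA, an ETS family factor, had 105 and 149.6 in E4 6hPR+FGF2 against 299.8 and 406 in E4 RPE, a change of -1.47.

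At other factors the largest change was a rise. The promoter of RUNX1, a runt domain factor of blood development, held a region with 107 and 148 in E4 6hPR+FGF2 against 33.9 and 29.4 in E4 RPE, a change of 1.96 ± 0.32, with 2 higher and 1 lower of 8 regions. OLIG2, a factor of neural progenitors, had 2 higher of 6, and its largest had 636 and 665 against 354 and 295, a change of 1.01 ± 0.16. BACH1, a repressor of antioxidant genes, had 2 higher and 1 lower of 6, the largest with 218 and 379 in E4 6hPR+FGF2 against 39.6 and 64.4 in E4 RPE, a change of 2.48 ± 0.34. BCOR, a corepressor of BCL6, had 3 higher and 0 lower of 19, the largest with 291 and 301 against 83.4 and 45.7. Regions of the ETS factor ERG and of the bHLH-PAS factor SIM2 changed by 1.64 and 2.13 at their largest, and each gene had 1 higher and 1 lower region. Neither change passed without the second E4 6hPR+FGF2 or the second E4 RPE library. FOXP2, FEZF1 and ETS2 had no call.

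Of 153 regions of 17 genes of adhesion, guidance and the cytoskeleton, 21 were higher and 23 lower, and 13 genes had a call. The shares were 13.7% and 15.03%, beside 9.07% and 12.2% in the annotated stretch of chromosome 1. The class 3 semaphorins, secreted guidance cues, had DARs in both directions. SEMA3A had 4 higher and 6 lower of 32 regions, SEMA3D had 3 and 6 of 24, SEMA3E had 1 and 2 of 19, and SEMA3C had 0 and 3 of 8. The largest rise of SEMA3A was intergenic, with 148 and 282 normalized counts in E4 6hPR+FGF2 against 9.90 and 30.98 in E4 RPE, and that of SEMA3D was intronic, with 114 and 166 against 12.7 and 13.0. A region of SEMA3C fell, with 367 and 447 in E4 6hPR+FGF2 against 1124 and 1442 in E4 RPE, a change of -1.65 ± 0.20. Each of these semaphorin genes had more lower than higher regions, on few calls, and differences between the genes were not tested.

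Other genes of this list were of the matrix, of junctions and of focal adhesions. LAMB1, the beta 1 chain of laminin in basement membranes, had 3 higher of 4 regions, the largest an intronic region with 389.9 and 526 in E4 6hPR+FGF2 against 55.2 and 66.9 in E4 RPE, a change of 2.88 ± 0.31. TES, a LIM protein of focal adhesions, had 3 higher of 11, the largest with 322 and 730.3 against 74.95 and 104. CAV2, a caveolin, had 2 higher of 4, and the larger change, at 76.6 and 66.4 in E4 6hPR+FGF2 against 28.3 and 30.98 in E4 RPE, did not pass when any 1 of the 4 E4 libraries was left out. The single region of CLDN8, a tight junction claudin, fell, with 65.6 and 71.7 in E4 6hPR+FGF2 against 161 and 229.9 in E4 RPE, whereas a region of CLDN14 rose, with 237 and 374 against 127 and 181, though not without the second E4 6hPR+FGF2 or the first E4 RPE library. RELN, the extracellular protein reelin, had 3 higher and 2 lower of 11. A region of NCAM2, a neural adhesion molecule, had 2.76 and 0 in E4 6hPR+FGF2 against 21.2 and 45.7 in E4 RPE, few reads for its change of -4.05 ± 1.02, which did not pass without the second E4 6hPR+FGF2 or the second E4 RPE library. PTPRZ1, CAV1, CAPZA2 and JAM2 had no call.

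**Figure D5:**
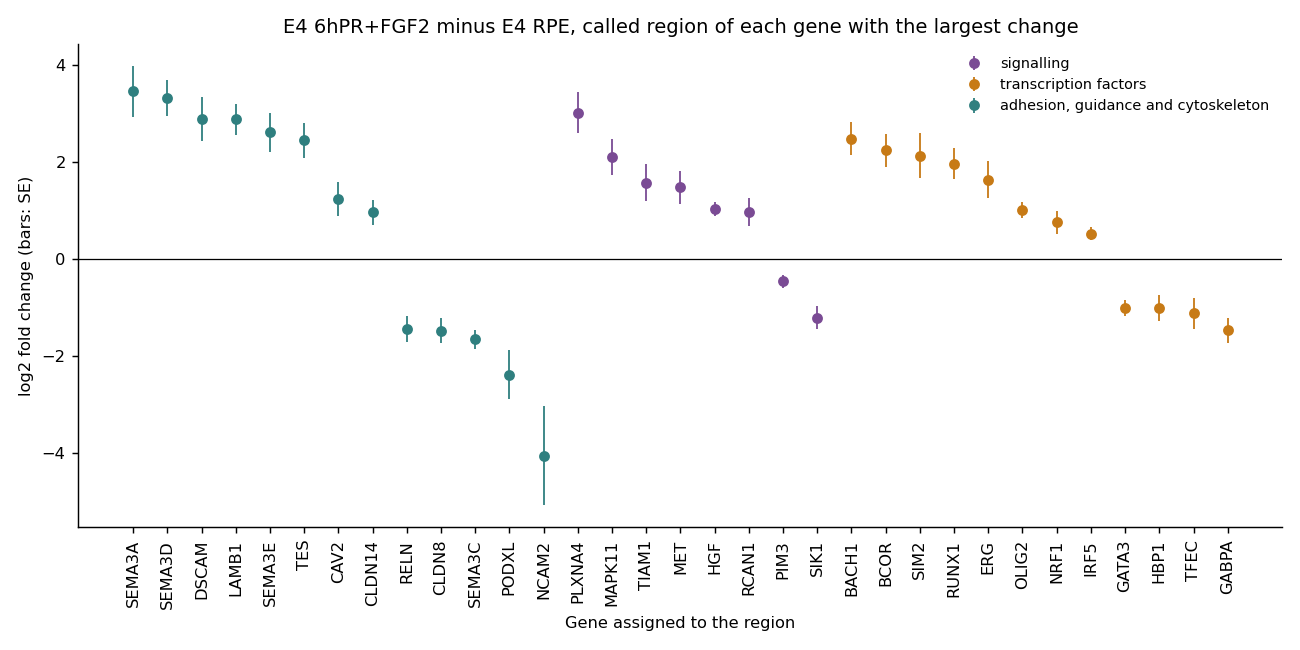
Log2 fold change, E4 6hPR+FGF2 minus E4 RPE, of the called region with the largest change for each gene of the signalling (purple), transcription factor (orange) and adhesion, guidance and cytoskeleton (teal) lists, with bars of 1 SE. Values run from 3.46 at SEMA3A to -4.05 at NCAM2, and genes with no called region are not drawn.

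The counts on the lists were as unsteady as the counts overall. Leaving out each E4 library in turn, the signalling list had 4 to 10 higher and 2 to 6 lower regions, the transcription factor list 5 to 10 and 2 to 9, and the adhesion list 9 to 17 and 12 to 15. Under scaling to equal totals they were 14 and 8, 21 and 9, and 23 and 21, so that the adhesion list then had more higher than lower regions.

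The E5 libraries gave changes in the same direction at most E4 DARs. The E4 and E5 comparisons share no library, and over all regions 18.2% were higher and 19.3% lower at E5. The 9122 higher DARs at E4 had a median log2 fold change of 1.32 at E5, with the same sign in 98.9%, and 7782 were called higher and 4 lower there. The 8096 lower DARs had a median of -1.16, with the same sign in 97.6%, and 6426 were called lower and 8 higher. Among the regions not called at E4 the sign was shared in 76.5%. For the difference between the stages itself, limma called 0 autosomal regions outside the near-lost class, with 8078 at an unadjusted p under 0.05. Its calls within the near-lost class are given further below. Outside that class edgeR called 0, with 8340 at that level, and DESeq2 called 280, with 6916. A difference that missed the test does not show that the stages responded alike.

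Chromosome Z, the sex chromosome that males carry in a pair, had fewer calls. Of its 4437 regions 5.70% were higher and 3.40% lower, with a median log2 fold change of 0.02. The median standard error was 0.38 on Z against 0.27 on autosomes, so a change had to be larger to pass. The median size of the log2 fold change, without regard to sign, was 0.39 on Z against 0.41 on autosomes. Fewer calls on Z thus do not show a smaller response. The share of the signal on Z was 4.89% and 3.95% in E4 6hPR+FGF2 against 4.60% and 3.61% in E4 RPE, so that in both groups the first library held more. The largest rise was chrZ:34536490-34537050, with 156 and 230.5 normalized counts in E4 6hPR+FGF2 against 5.66 and 10.6 in E4 RPE, a change of 4.44 ± 0.45. The largest fall was chrZ:43922420-43922960, with 27.6 and 6.11 against 873 and 487.

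Chromosome W, which only females carry, was nearly empty in the first treated library. It took 0.000765% and 0.109% of the signal in E4 6hPR+FGF2 against 0.229% and 0.355% in E4 RPE. Of 123 regions on W that were not near-lost, 0 were higher by limma and 13.0% were lower. The strongest, chrW:1839410-1873270, had 11.7 and 28934 normalized counts in E4 6hPR+FGF2 against 35547 and 76177 in E4 RPE, an adjusted p of 0.295. The first treated library was nearly empty in this region and the second was not, and a share of female embryos in the pools that differs by library cannot be told apart from a response.

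Near-lost regions held almost no signal after treatment. They took 0.00275% and 0.00424% of the signal in the E4 6hPR+FGF2 libraries against 0.966% and 0.561% in the E4 RPE libraries. Of the 361, 80 were on W, 17 on Z and 264 on autosomes. The strongest was chr2:49591540-49591920, with 40.7 and 38.9 normalized counts in E4 6hPR+FGF2 against 240160.0 and 84411 in E4 RPE, followed on autosomes by chr19:226130-227350, with 109 and 80.1 against 14201 and 11975. The mirror image, regions whose E4 RPE signal came to under 2% of that in E4 6hPR+FGF2, numbered 2, of which 0 reached 100 normalized counts.

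Near-lost regions were grouped along the genome and shared with E5. Of the 264 on autosomes, 196 lay within 100000 bp of another, 136 had no read in either treated library, and 44 were on chromosome 1, 34 on chromosome 31 and 22 on chromosome 30. Outside the near-lost class these chromosomes held 13337, 155 and 233 of the 84902 autosomal regions. The count on chromosome 1 was thus near its share of all regions, and those on chromosomes 31 and 30 were above theirs. Of all 361, 293 were also near-lost at E5, and 55 had under 20 normalized counts in E4 RPE, where a few reads decide. The 361 include the 80 on W. Chromosome W took 0.000765% of the signal in the first E4 6hPR+FGF2 library and 0.000527% in the first E5 6hPR+FGF2 library. The second libraries of these groups held 0.109% and 0.187%. In the second E4 6hPR+FGF2 library the near-lost regions on W had a median of 1.53 normalized counts, against 77.1 in the other regions on W. In the E4 RPE libraries these medians were 141 and 183 for near-lost regions, against 86.3 and 177 for the others. The part of the sex of the pools in the near-lost regions on W was not tested. With the limit at 1% there were 288 and at 5% there were 468. Just inside the limit, chr18:10990680-10991000 had 4.14 and 3.82 in E4 6hPR+FGF2 against 236 and 162 in E4 RPE, and just outside it chr24:6362510-6363130 had 20.01 and 35.1 against 1805 and 854, so the limit cuts a continuous range. The E4 values follow from the rule that defines the class, and part of the regions were not near-lost at E5. The labels give no batch of library preparation, so a batch and the treatment cannot be told apart for these regions, as for the others.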

How the data were processed

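ATAC-seq of chicken RPE was analysed in 8 libraries, 2 per group, with groups and replicates taken from the labels. Per the study's methods, the authors trimmed reads with Cutadapt and Trim Galore, aligned them to GRCg6a with Bowtie2 reporting up to 5 alignments per read, removed duplicates with Picard, called open regions in each library with HMMRATAC, merged them across libraries with BEDTools, dropped mitochondrial regions and counted reads without regard to strand with featureCounts. Tool versions, and how reads with more than 1 alignment were counted, were not stated. The deposited values are a signal, namely read counts per region divided by 1 DESeq2 size factor per library, and the authors did not pool replicates. In each library 100% of values were whole multiples of the smallest value above 0 within a tolerance of 1e-06, so reads were recovered by division. Coordinates are as deposited, with the base at which starts begin to count not stated. The table held 89824 entries, of which 1 spanned no base and had no signal and was left out.

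A group-means model of all 8 libraries was fitted with limma 3.58.1 (R 4.3.3, empirical Bayes with a trend) to log2(normalized count + 1), and the contrast was E4 6hPR+FGF2 minus E4 RPE, two-sided, adjusted over 89823 regions by Benjamini-Hochberg. Fold changes on this scale understate the change of low regions. The labels call the replicates biological and say nothing of how they were processed apart, so p-values measure the spread between these libraries. Differences between classes of regions are descriptions without a test, since regions of a library are not replicates. No counting intervals were computed.

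The regions named were the 8 largest rises and falls among autosomal DARs that were not near-lost, had non-overlapping replicates and averaged 100 normalized counts or more in the higher group, the largest of each width and chromosome class, the 3 largest gains and drops, the 6 largest rises and falls with a gene symbol, the largest called change of each gene on 3 lists, 2 rises and falls on Z, 2 regions each of W and the near-lost class, and 3 windows per direction. Some of these are given as counts only, and the limit of 100 normalized counts did not apply to the regions of the 3 lists. Members, classes and gene lists were chosen with earlier results of these data known. Gene symbols were those of the study's annotation, of which 429 of 482 matched RefSeq names of the GRCg7b assembly. The study's own fold changes and p-values were not used. No sequence of the GRCg6a build was at hand, so none is shown. The fit was checked on simulated data. Alternatives were pseudocounts of 0.5 and 10, a mean of at least 50 normalized counts, other scalings, quantile normalization, leaving out Z and W, the near-lost regions or single libraries, the E4 libraries alone, a replicate block, robust moderation, and edgeR 4.0.16 (quasi-likelihood test) and DESeq2 1.42.0 on the recovered reads.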

Additional observations from a re-analysis of the deposited data

Results flagged for a closer look

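At 2 neighbouring regions of chromosome 1 the response differed between the stages by a test of the difference itself, limma's interaction term over all 89823 regions, and both belong to the near-lost class at E4. At chr1:196930-199350 the signal was 73.8 and 41.2 normalized counts in E4 6hPR+FGF2 against 7126 and 5459 in E4 RPE, a log2 fold change of -6.79 ± 0.30 (SE). At E5 it was 1749 and 3063 in E5 6hPR+FGF2 against 5719 and 4640 in E5 RPE, a change of -1.15 ± 0.30. The difference between the stages was -5.64 ± 0.43, with an adjusted p of 0.00475 by limma. At chr1:199560-200610 it was 50.4 and 51.9 in E4 6hPR+FGF2 against 3041 and 2377 in E4 RPE, a change of -5.69 ± 0.26, and 584 and 1074 in E5 6hPR+FGF2 against 1667 and 1343 in E5 RPE, a change of -0.92 ± 0.26. The difference there was -4.77 ± 0.37, with the same adjusted p. Both E4 6hPR+FGF2 libraries were almost empty in these regions, and both E5 6hPR+FGF2 libraries were not.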

How the results depend on the processing

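Leaving out single libraries moved the counts most. Over the 8 such fits there were 6441 to 19505 autosomal DARs, 2635 to 9475 of them higher and 3215 to 10030 lower. The fits leave a group with 1 library, which is assumed to vary like the other groups. DESeq2 and edgeR on the recovered reads called 18989 and 17826 autosomal regions, of which 16821 and 16883 were also called by limma. The E4 libraries alone gave 12978. Equal totals over all regions gave 18649, with 65.0% higher, equal totals over autosomal regions 18437, with 63.6% higher, and quantile normalization 19272. The remaining alternatives other than the replicate block gave 17140 to 19301. With the replicate block there were 20301, 10502 higher and 9799 lower. The deviations of same-numbered E4 libraries correlated at 0.3285 over regions, but the labels do not say that a number marks a shared batch and there are only 2 pairs, so the libraries share a number and no more. None of 80 named regions changed sign, and 58 passed the test under each of the 21 alternatives in which they were fitted. The other 22 did not pass in at least 1, most often without the second E4 6hPR+FGF2 library (17) or the second E4 RPE library (16). The cause was not tested. Near-lost regions numbered 288 at a limit of 1% and 468 at 5%. Low regions had few reads, and their fold changes were the least certain.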
